A study of Homo sapiens with 8 samples.

Results

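Chromatin accessibility was profiled in LX-2 cells, an immortalised human hepatic stellate cell line, and the regions described here are those that were called accessible after 4 days on a stiff matrix and in no other culture condition. Overlapping peaks of the 8 libraries were merged, and a merged region was kept when it held a peak in both D4 stiff lists and in none of the other 6. This rule gave 1373 regions of 102366 in all. Among the 75501 regions with a peak in at least 2 libraries, they made up 1.82%. Leaving out a library and applying the rule again moved the number most for D4 stiff replicate 1 (8265 regions), D4 stiff replicate 2 (5024) and D2 stiff replicate 2 (2130). A rise is built into the rule. With 1 D4 stiff list left, a peak in that list alone is enough, and leaving out any other library can only add regions. Since the regions were chosen by where peaks were called, the strength of those peaks is given only as a description.

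Wild-type LX-2 cells were seeded on polyacrylamide hydrogels of about 2 kPa (soft) or about 40 kPa (stiff) and collected on day 2 or day 4. The 4 groups are written as D2 or D4, for the day, with soft or stiff, and each had 2 libraries. Accessibility was read by ATAC-seq, in which a transposase inserts sequencing adapters into open DNA. All groups were the same cell line, with no other agent or allele, so the data describe a single immortalised line. Depth, estimated from the lists, ran from 0.780 fragments per kb of genome in D2 soft replicate 1 to 3.15 in D4 stiff replicate 1, and the D4 stiff libraries were the deepest, at 3.15 and 2.87. They also had the longest lists, with 65905 and 72840 peaks against 29789 to 63684 in the others. Of 12 stellate cell or myofibroblast marker genes, 7 to 9 had a promoter peak in each library, against 0 to 2 of 12 hepatocyte genes and 2 to 3 of 12 macrophage or lymphocyte genes. Of the 12 endothelial and 12 cholangiocyte markers, 11 each were in the annotation. Endothelial markers had a promoter peak at 7 of these 11 genes in D4 stiff replicate 2 and at 1 to 5 in the other libraries. Cholangiocyte markers had one at 2 to 5 of 11. Of all protein-coding genes, 46.0% had a promoter peak in D2 soft replicate 1 and 60.4% to 65.7% in the other libraries. Those shares leave out the regions described here. The marker counts were not tested against them and were not used to identify the cells. The part of other cell types in the result was not tested. In such bulk libraries, more cells with an open site and a site that is more open in each cell cannot be told apart.

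Hepatic stellate cells store vitamin A in the healthy liver, and after injury they become contractile myofibroblasts that deposit collagen. A stiff matrix is sensed through integrins, focal adhesions and the actin cytoskeleton, and the signal reaches the nucleus through transcription factors such as AP-1 (dimers of JUN and FOS proteins) and TEAD, the partner of YAP. Open chromatin away from promoters often marks enhancers, where such factors bind. Promoters of active genes tend to stay open in most conditions, whereas distal regions differ more between cell states.

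The sequences below show what the regions look like at the DNA level. Each run is the summit of the region's best-ranked peak with 100 bases on each side, from the plus strand of GRCh37, and capitals mark matches to the AP-1 motif (TGACTCA, or TGAGTCA on the other strand) and to the TEAD motif (GGAATG on either strand). The first pair are the best-ranked regions with an AP-1 match, at intergenic sites nearest to PTGER2 and GFPT1.
PTGER2 (chr14:52809681-52809881): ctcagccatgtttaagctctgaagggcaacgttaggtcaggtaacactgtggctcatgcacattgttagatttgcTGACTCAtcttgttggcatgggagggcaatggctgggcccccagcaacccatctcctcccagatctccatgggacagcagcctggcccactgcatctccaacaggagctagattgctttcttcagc
GFPT1 (chr2:69487892-69488092): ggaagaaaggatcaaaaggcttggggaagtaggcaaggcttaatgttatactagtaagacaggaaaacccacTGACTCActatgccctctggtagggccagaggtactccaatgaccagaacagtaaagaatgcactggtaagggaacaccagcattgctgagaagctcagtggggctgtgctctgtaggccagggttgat

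The following pair are the best-ranked regions with a TEAD match and no AP-1 match. The first is intergenic near LRRC37A3, and the second lies in introns of non-coding genes near MSX2.
LRRC37A3 (chr17:62978601-62978801): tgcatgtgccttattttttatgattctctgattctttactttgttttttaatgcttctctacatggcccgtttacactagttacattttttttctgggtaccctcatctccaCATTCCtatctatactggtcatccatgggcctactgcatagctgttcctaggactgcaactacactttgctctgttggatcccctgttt
MSX2 (chr5:174252670-174252870): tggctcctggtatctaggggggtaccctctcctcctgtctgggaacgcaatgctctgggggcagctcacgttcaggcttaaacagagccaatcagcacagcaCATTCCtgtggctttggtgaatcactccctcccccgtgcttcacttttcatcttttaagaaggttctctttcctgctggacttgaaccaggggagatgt

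Most D4 stiff alone regions (57.3%) held neither motif, close to the 56.3% over the 75501 regions. The 2 best-ranked of these lie in introns of MTCL1 and BMP10 and are shown as examples.
MTCL1 (chr18:8721861-8722061): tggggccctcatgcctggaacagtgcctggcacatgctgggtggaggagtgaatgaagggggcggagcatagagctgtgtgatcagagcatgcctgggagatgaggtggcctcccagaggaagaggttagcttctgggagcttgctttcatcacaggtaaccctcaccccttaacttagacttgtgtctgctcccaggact
BMP10 (chr2:69097459-69097659): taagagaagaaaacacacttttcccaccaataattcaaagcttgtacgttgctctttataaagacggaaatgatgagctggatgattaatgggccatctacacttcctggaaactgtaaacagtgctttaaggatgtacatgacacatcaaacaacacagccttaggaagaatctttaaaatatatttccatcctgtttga

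The last pair are the best-ranked regions at a promoter of a protein-coding gene. The LRRC15 window has an AP-1 match beside its transcription start, and the CHST13 window, with a GC content of 78.6%, has none.
LRRC15 (chr3:194090435-194090635): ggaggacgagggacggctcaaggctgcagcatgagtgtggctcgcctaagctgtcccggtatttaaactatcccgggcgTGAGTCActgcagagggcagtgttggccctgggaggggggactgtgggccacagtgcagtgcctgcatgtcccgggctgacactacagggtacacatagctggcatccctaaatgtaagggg
CHST13 (chr3:126243079-126243279): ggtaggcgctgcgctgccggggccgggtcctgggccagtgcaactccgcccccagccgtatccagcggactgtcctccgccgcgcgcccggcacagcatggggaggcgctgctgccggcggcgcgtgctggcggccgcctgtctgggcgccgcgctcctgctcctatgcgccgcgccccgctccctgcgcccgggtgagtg

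The D4 stiff alone regions were weak peaks in both lists. Each peak was given a percentile within its own list by its −log10 p, where 100 is the strongest peak. The median percentile of the 1373 regions was 13.7 in D4 stiff replicate 1 and 17.4 in replicate 2, while regions found in all 8 libraries had medians of 79.8 and 80.6. Regions of D2 stiff alone had medians of 17.6 and 21.4 in their own lists and those of D4 soft alone 14.9 and 13.9, so low ranks were not particular to D4 stiff alone. The mean of the medians was 15.6 over both D4 stiff lists. It was 8.91 when D4 stiff replicate 2 was left out and the regions chosen again, which then needed a peak in replicate 1 only. Only 18 regions (1.31%) in replicate 1 and 49 (3.57%) in replicate 2 passed the 50th percentile, and 0 passed the 90th in either list. The fold enrichment of the summit over local background had a median of 4.94 in replicate 1 and 4.95 in replicate 2, and ranged from 2.21 to 12.0 in both lists together. In fragments, the estimated median height at the summit was 9 in each replicate, where the lists as a whole had medians of 22 and 18. Peak width had a median of 362 bp in replicate 1 and 329 bp in replicate 2.

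**Figure D1:**
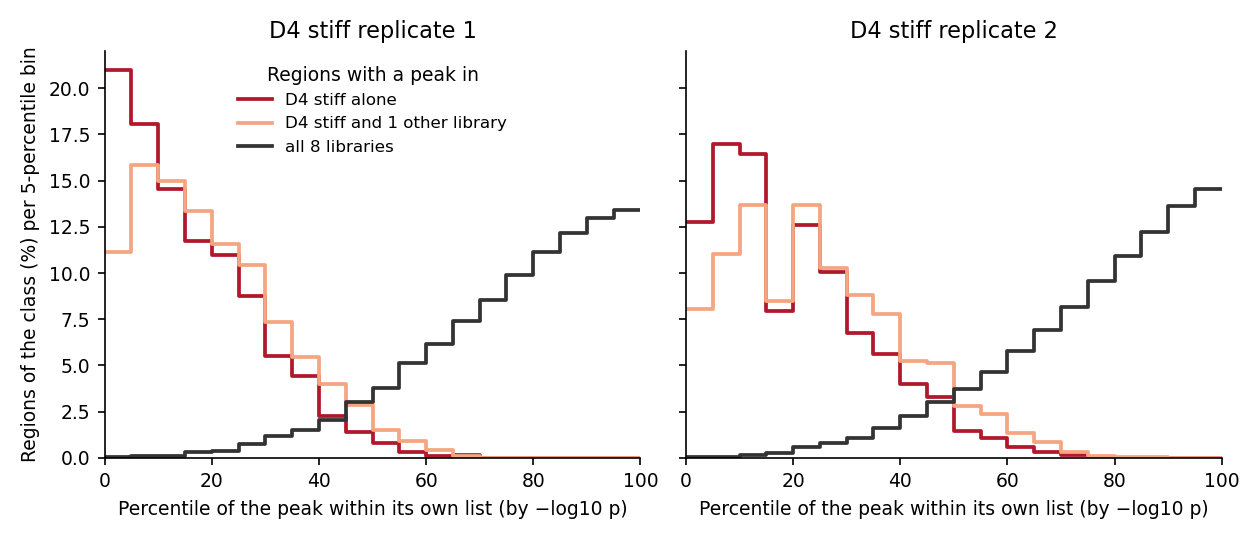
Percentile of each region's best peak within its own list (x axis) against the share of the class in each bin of 5 percentiles (y axis, percent), for D4 stiff replicate 1 (left) and replicate 2 (right). Regions in D4 stiff alone (red, n = 1373) and in D4 stiff with 1 other library (orange, n = 2527) lie at the low end, and regions in all 8 libraries (black, n = 24246) at the high end.

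The rule asks for a peak in both D4 stiff lists, so overlap between the replicates is fixed by it. Within that, the summits of the 2 replicates lay a median of 54 bp apart over the 1373 regions, and 981 (71.4%) were within 100 bp, against 43 bp and 78.9% in the regions of all 8 libraries. The rank correlation of the percentiles across regions was 0.346 (Spearman), against 0.413 across the 2527 regions with 1 other library and 0.848 across the 24246 regions in all 8 libraries, which span a wider range of percentiles. These correlations describe regions within one pair of libraries, and regions are not independent replicates. The percentile was higher in replicate 1 at 538 of the 1373 regions.

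The edge of the rule was populated on both sides. Inside it, 1279 regions (93.2%) had a q-value up to 0.01 in both D4 stiff lists, and the highest q-values were 0.0448 in replicate 1 and 0.0478 in replicate 2. The nearest peak of another library was 8 bp away at the closest and 8067 bp away at the median. It was within 200 bp at 22 regions, within 1 kb at 125 (9.10%) and beyond 10 kb at 576 (42.0%). Just outside the rule were 2527 regions with a peak in both D4 stiff lists and in exactly 1 other library, and their median percentiles were 17.1 and 22.6. The other library was D2 stiff replicate 2 at 756 of them, D4 soft replicate 1 at 577, D2 stiff replicate 1 at 483, D2 soft replicate 2 at 337, D4 soft replicate 2 at 322 and D2 soft replicate 1 at 52. A further 3617 regions had a peak in D4 stiff replicate 1 only, and 6761 in replicate 2 only.

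Few of the regions kept both D4 stiff peaks in shorter lists. When the lists were cut to the length of the shortest one other than D2 soft replicate 1, 405 regions met the rule, and they overlapped 294 (21.4%) of the 1373, since the other 1079 lost a D4 stiff peak through the cut itself. When every list was cut to the 29789 peaks of D2 soft replicate 1, 124 regions met it, and they overlapped 2 of the 1373, since 1371 lost a D4 stiff peak. These cuts say nothing of the other 6 lists, in which a region counts as absent when no peak was called. The same rule gave 461 regions for D2 stiff alone, 393 for D4 soft alone and 31 for D2 soft alone, and those groups had shorter lists.

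Most D4 stiff alone regions lay away from promoters. A region was assigned by its centre to a promoter when a transcription start of any annotated gene was within 1 kb, and failing that to whichever of exon, intron or intergenic space its centre fell in. Introns held 727 (52.9%), intergenic sequence 434 (31.6%), promoters 166 (12.1%, 95% Wilson interval 10.5 to 13.9) and exons 46 (3.35%). With protein-coding starts only, the promoter share was 7.87%, and it was 29.8% of the 124 regions that met the rule when every list was cut to the shortest. The promoter share was 22.4% of the 75501 regions and 37.9% of the regions in all 8 libraries. It was 13.3% (12.0 to 14.6) in the regions with 1 other library, 8.24% (6.06 to 11.1) in D2 stiff alone and 7.12% (4.98 to 10.1) in D4 soft alone. Thus the interval of D4 stiff alone overlapped those of the regions with 1 other library and of D2 stiff alone, and that of D4 soft alone lay below. All such intervals cover counting error only and take regions as independent.

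**Figure D2:**
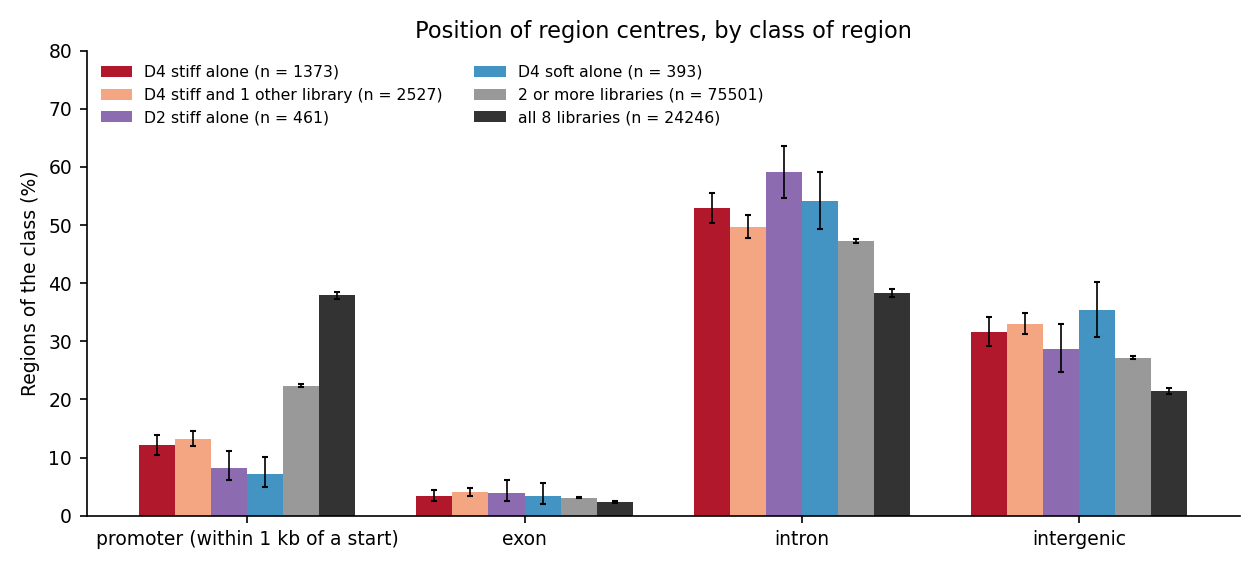
Share of regions (y axis, percent) whose centre lay at a promoter, in an exon, in an intron or in intergenic sequence, for 6 classes of region, with 95% Wilson intervals as error bars. The promoter share was 12.1% in D4 stiff alone and 37.9% in regions found in all 8 libraries.

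The nearest protein-coding transcription start was a median of 38783 bp from a D4 stiff alone region, against 30008 bp over the 75501 regions, 34752 bp in D2 stiff alone and 59288 bp in D4 soft alone. A distance of more than 100 kb was found for 364 regions (26.5%), where the share over the 75501 regions was 24.5%. A region found in all 8 libraries lay within 10 kb of 238 of them (17.3%), against 20.7% over the 75501. The 201-base windows had a median GC content of 47.3%, against 48.3% over the 75501 and 52.2% in regions of all 8 libraries. No CpG was present in 250 windows (18.2%), against 14.5%. The regions were spread over the genome, with a share among each autosome's regions of 1.07% on chromosome 15 to 2.36% on chromosome 21. Neighbouring regions were a median of 552 kb apart, and 166 of them (12.1%) had another within 100 kb.

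Of the 166 promoter regions, 108 (65.1%) were at a start of a protein-coding gene, 37 at a long non-coding RNA and 21 at another kind of gene. Among the 75501 regions, 16884 were at a promoter, and 13258 of these were within 1 kb of a protein-coding start. The 108 served 109 protein-coding genes, and 18 of these genes (16.5%) also had a start within 1 kb of a region found in all 8 libraries. That share was not counted over all protein-coding genes, so it has no background here. LRRC15, a leucine-rich-repeat membrane protein known from activated fibroblasts, had the best-ranked one at chr3:194090299-194090608, 6 bp from its start, with a fold enrichment of 4.93 in D4 stiff replicate 1 and 6.14 in replicate 2. At CHST13, a sulfotransferase that acts on chondroitin, the region chr3:126243055-126243530 had fold enrichments of 7.999 and 6.52. The promoter of PLEKHA2, a phosphoinositide-binding adaptor, had 5.54 and 5.11. The next was ADGRA2, an adhesion receptor involved in Wnt7 signalling, with 5.21 and 7.14. STXBP5L, a syntaxin-binding protein, had 7.69 and 6.81. CPT1A, which brings long-chain fatty acids into mitochondria, had 3.86 and 5.32. Fold enrichment refers to each library's own background and was not compared between libraries.

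The 10 best-ranked regions were all intronic or intergenic. The first was intergenic at chr14:52809664-52810152, 28878 bp from the start of PTGER2, a receptor for prostaglandin E2, with a fold enrichment of 7.87 in replicate 1 and 9.24 in replicate 2. The region at chr2:69487512-69488304 was nearest to GFPT1, which controls entry into the hexosamine pathway, and had 12.0 and 9.91. These were the regions with the best mean percentiles, at 64.4 and 62.0.

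The next regions lay mostly inside genes. An intron of MTCL1, a microtubule-binding protein, had 8.30 and 11.2, and an intron of LPCAT1, an enzyme of phospholipid remodelling, had 7.01 and 9.93. A region in an intron of the non-coding gene LINC00511, at chr17:70597098-70597423, had SOX9 as its nearest protein-coding gene at 480100 bp, and had 8.84 and 8.34. SOX9 is a transcription factor of bile duct and cartilage cells that is also made by activated stellate cells. Others of the 10 were nearest to DNAJC9 (9.07 and 11.1), RMI2 (7.85 and 12.0, in an intron of CLEC16A), UQCRFS1 (9.45 and 10.5, at 1633129 bp) and BMP10 (10.8 and 8.59, in its own intron). Of the windows named here, those near PTGER2, GFPT1, LPCAT1, SOX9, DNAJC9, RMI2 and UQCRFS1 held an AP-1 match.

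The shares with an AP-1 or a TEAD match were close to those over the 75501 regions. An AP-1 match within 100 bp of the summit was present in 396 regions, or 28.8% (26.5 to 31.3), against 30.2% of the 75501 regions, 28.3% of the regions in all 8 libraries, 31.5% (27.4 to 35.8) in D2 stiff alone and 25.7% (21.6 to 30.2) in D4 soft alone. A TEAD match was present in 260, or 18.9% (17.0 to 21.1), against 19.1% of the 75501, 18.1% in all 8 libraries, 24.7% (21.0 to 28.9) in D2 stiff alone and 14.2% (11.1 to 18.1) in D4 soft alone. Both motifs were in 70 regions (5.10%) and neither in 787 (57.3%), against 5.63% and 56.3% of the 75501. At least 2 AP-1 matches were in 18 regions (1.31%), against 3.07% of the 75501. The classes also differ in promoter share, at 12.1% in D4 stiff alone, 22.4% of the 75501 and 37.9% in all 8 libraries. Motif shares were not compared between classes at a like promoter share. A match is a run of letters and does not show that a factor was bound.

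**Figure D3:**
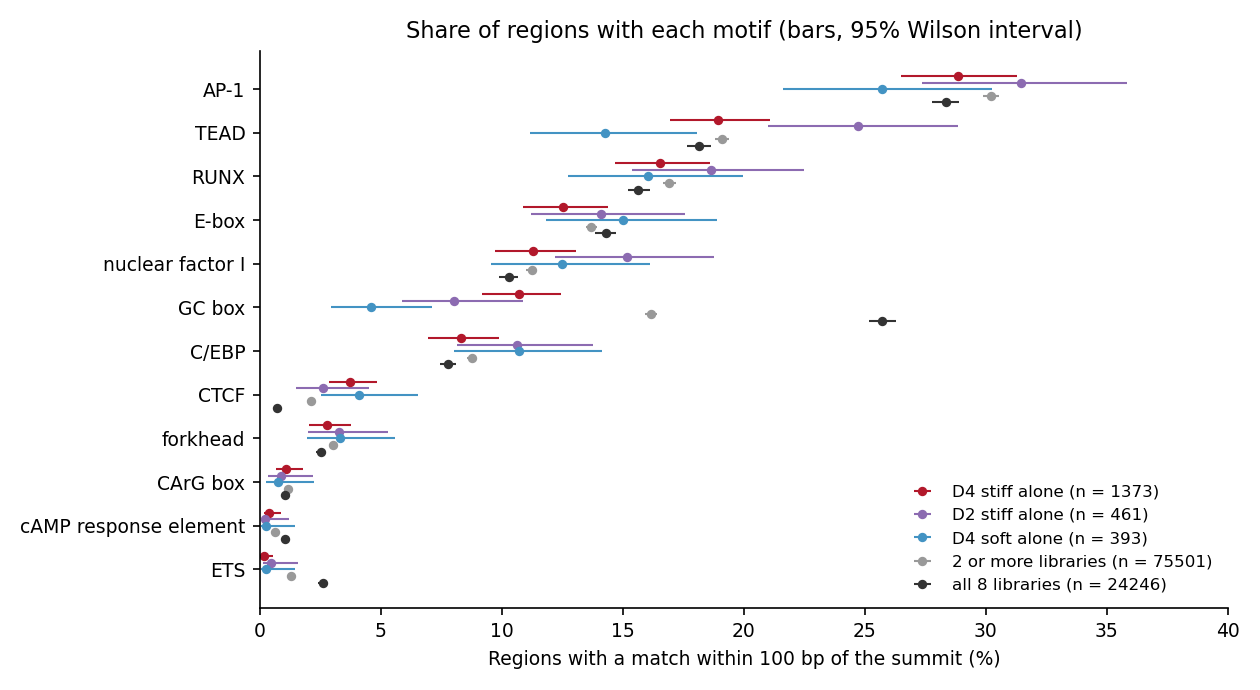
Share of regions with a match to each of 12 motifs within 100 bp of the summit (x axis, percent), with 95% Wilson intervals as bars, for 5 classes of region. The AP-1 share was 28.8% in D4 stiff alone and 30.2% in regions of 2 or more libraries, while the GC box share was 10.7% and 16.2%.

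Other motifs separated the regions from those in all 8 libraries more than AP-1 or TEAD did. The GC box (GGGCGG, bound by SP factors and common at promoters) was in 147 regions, or 10.7%, against 16.2% of the 75501 and 25.7% in all 8 libraries. Its share was 10.7% with 1 other library, 8.03% in D2 stiff alone and 4.58% in D4 soft alone. The ETS motif (CCGGAAGT) was in 2 regions (0.146%), against 1.27% of the 75501 and 2.59% in all 8 libraries. Its share was 0.396%, 0.434% and 0.254% in the same 3 classes. Low shares of these motifs were thus not particular to D4 stiff alone. The motif of CTCF, the protein that anchors chromatin loops, was in 51 regions, or 3.71% (2.84 to 4.85). It was in 2.11% of the 75501, 0.718% in all 8 libraries, 2.60% of D2 stiff alone and 4.07% (2.52 to 6.51) of D4 soft alone. With 1 other library the CTCF share was 3.96% (3.26 to 4.79), so this share was not particular to D4 stiff alone either. The RUNX motif (TGTGGT) was in 16.5%, the E-box (CAGCTG) in 12.5%, the nuclear factor I motif (TTGGCA) in 11.3% and the C/EBP motif (TTGCNNAA) in 8.30%. Over the 75501 regions these shares were 16.9%, 13.7%, 11.2% and 8.74%. Forkhead (TGTTTAC, 2.77%), the CArG box of serum response factor (1.09%) and the cAMP response element (TGACGTCA, 0.364%) were rare, at 3.02%, 1.15% and 0.608% over the 75501. The motifs were searched on both strands, and matches of different motifs may overlap.

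The motif content varied among the regions themselves. The AP-1 share was 11.4% of the 166 promoter regions and 31.2% of the 1207 others, and the GC box share was 39.8% and 6.71%. The median GC content was 62.7% at the promoters and 45.8% elsewhere. When the regions were ordered by their mean percentile into 4 groups of 338 to 348, the AP-1 share was 20.1% in the weakest, then 29.6% and 28.4%, and 37.3% in the strongest. The TEAD share ran from 17.2% to 20.4% in the same order. The regions in the strongest group had mean percentiles from 24.5 to 64.4. Other classes of region were not split in these ways, so whether the patterns are particular to D4 stiff alone was not tested.

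The 1373 regions were nearest to 1259 protein-coding genes, and for 1162 of these the number was 1. The counts for single genes below were not set against a background of their own. TENM3, a teneurin that joins cells across membranes, was nearest to the most, with 5 of its 41 regions. ADGRB3, an adhesion receptor of the brain, had 4 of 59. COL8A1, which encodes a short-chain collagen made by activated stellate cells, had 4 of 31. PDE8B, a cAMP phosphodiesterase, had 4 of 11. A further 8 genes had 3 each, and the best-ranked of these were NARS2, FRMPD4, ZNF366, GALC, PLEC and FMN2, with 13, 26, 16, 20, 13 and 25 regions in all. In all, 5 windows of 100 kb held 3 regions each, the most found, and among them were one in COL8A1 (chr3:99366511-99422299), one in TENM3 (chr4:183455200-183499830) and one around ZNF366 (chr5:71761672-71860050).

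At COL8A1, 24 of the 31 regions had a peak in D4 stiff replicate 1 and 24 in replicate 2. The number was 8 and 15 in D2 soft, 18 and 20 in D2 stiff, and 18 and 18 in D4 soft. D4 stiff also led over all 75501 regions, with a peak in 61914 and 64761, against 28885 to 58830 in the other libraries. With the 4 D4 stiff alone regions left out, both D4 stiff libraries had 20, a number that D2 stiff replicate 2 also reached. The 4 regions were weak. The one at chr3:99405565-99406060, in an intron 48373 bp downstream of the start, had a fold enrichment of 4.39 in replicate 1 and 7.43 in replicate 2. The others had 3.69 and 4.68 (9437 bp downstream), 3.93 and 3.38 (64675 bp downstream), and 5.01 and 4.33 (138876 bp upstream, at a promoter of another gene). The 64675 bp region ranked 1330 of 1373.

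**Figure D4:**
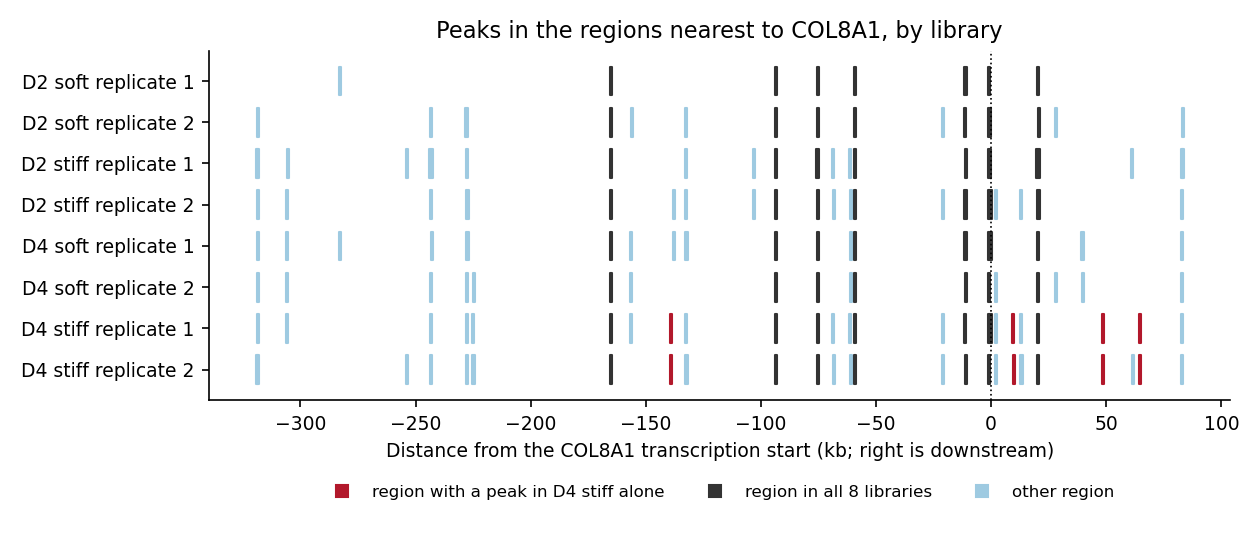
Peaks of each library (rows) in the regions nearest to COL8A1, by distance from its transcription start (x axis, kb), with narrow peaks widened to be visible. The 4 regions of D4 stiff alone (red) lie 138876 bp upstream and 9437, 48373 and 64675 bp downstream of the start, among regions found in all 8 libraries (black) and other regions (blue).

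At TENM3, 32 and 33 of the 41 regions had a peak in the D4 stiff libraries. The number was 7 and 13 in D2 soft, 17 and 21 in D2 stiff, and 19 and 17 in D4 soft. With the 5 D4 stiff alone regions left out, D4 stiff still had 27 and 28, above each of the other libraries. Over all 75501 regions, the D4 stiff alone regions included, D4 stiff also led. It had a peak in 61914 and 64761, and the other libraries in 28885 to 58830. In proportion, that lead was smaller than the one at TENM3. The best-ranked of the 5, at chr4:182880065-182880809, was 284118 bp upstream with fold enrichments of 7.67 and 8.60, and the other 4 ranked between 715 and 1067. At PDE8B, D4 stiff had 10 and 11 of 11 regions, and 6 and 7 without the 4, where the other libraries had 5 or 6. At ADGRB3, D4 stiff had 49 and 49 of 59, and 45 and 45 without the 4, where D4 soft replicate 1 had 47. These genes were chosen for their number of D4 stiff alone regions, and the counts are a description.

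The functions of the nearest genes were described with 17 gene lists. A gene with many accessible regions is more likely to be nearest to at least 1 of any class, so the D4 stiff alone regions were counted as a share of all regions nearest to the list's genes, against 1.82% over all genes. The share ran from 1.23% for Hippo pathway and YAP/TEAD target genes (4 of 325) to 3.21% for collagens and collagen processing (9 of 280, 1.70 to 5.99), and the 95% Wilson interval of each of the 17 lists held 1.82%. These counts therefore set no list apart from the background. With 4 to 16 regions per list the intervals were wide, such as 0.480 to 3.12 for the Hippo list. They also take regions as independent, so a moderate difference could go unseen. Of all 20136 protein-coding genes, 6.25% were nearest to a D4 stiff alone region.

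**Figure D5:**
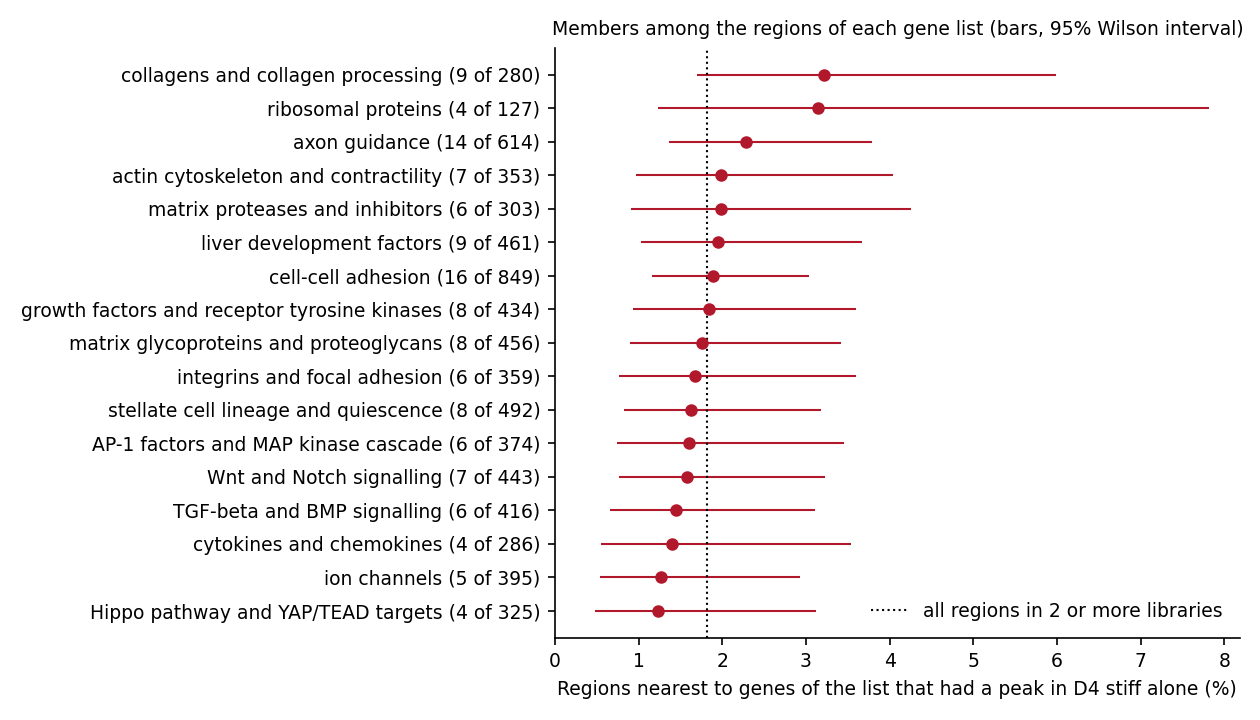
Regions of D4 stiff alone as a share of all regions in 2 or more libraries that were nearest to genes of each list (x axis, percent), with 95% Wilson intervals as bars and the number of regions after each name. The dotted line marks the share over all genes, 1.82%, and it lies within each interval.

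Among matrix genes, the 9 collagen regions were nearest to COL8A1 (4) and to COL1A2, COL4A2, COL5A2, COL16A1 and PLOD2 (1 each). Without COL8A1 the share was 2.01% (5 of 249). The COL1A2 region, 105706 bp upstream of this type I collagen chain, had fold enrichments of 7.14 and 6.19. The one nearest to COL5A2, a chain of type V collagen, had 5.49 and 5.58. Matrix glycoproteins and proteoglycans had 8 of 456 (1.75%), near CCN2, FBLN1, FN1, GPC1, GPC6, LAMA2, SPOCK1 and THBS2. At GPC1, a cell-surface heparan sulfate proteoglycan, the region was at the promoter and had 3.24 and 3.75. At CCN2, the matricellular growth factor known as CTGF, it was 44768 bp upstream in LINC01013, held an AP-1 and a TEAD match and had 5.49 and 6.81. Matrix proteases and their inhibitors had 6 of 303 (1.98%), near TIMP4 (6.39 and 8.998), MMP2 (4.94 and 6.81), ADAMTS3, ADAMTS5, PLAU and SERPINE2.

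Adhesion and the cytoskeleton gave similar shares. Integrin and focal adhesion genes had 6 of 359 (1.67%), of which 2 were nearest to TNS3, an actin-binding focal adhesion protein, and 1 each to ITGA5, ITGB4, LPP and TNS1. The best-ranked TNS3 region was at its promoter with 6.26 and 6.40, and the ITGB4 region, 224 bp from the start, had 5.61 and 3.49. Actin and contractility genes had 7 of 353 (1.98%), near MYOCD (2), CALD1, DIAPH1, FLNC, MRTFB and MYH9. The MYH9 region, in an intron of this non-muscle myosin heavy chain, had 4.29 and 4.52. Cell-cell adhesion genes had 16 of 849 (1.88%), near 14 genes including CDH2 (N-cadherin, 7.67 and 6.81), CTNNA2 (7.14 and 6.81) and PCDH15 (6.59 and 10.5). Axon guidance genes, whose semaphorins and ephrins also steer non-neuronal cells, had 14 of 614 (2.28%), with SEMA4D (9.26 and 8.05), PLXNA4 (8.24 and 9.21) and EFNA5 (8.16 and 6.81) the best-ranked.

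Signalling genes had shares of 1.23% to 1.84%. Hippo genes had 4 regions, 2 nearest to CRIM1 and 1 each to AMOT, an angiomotin that binds YAP (7.69 and 6.81), and to TEAD1 itself (3.84 and 3.10). AP-1 factors and MAP kinases had 6 of 374 (1.60%), near MAP2K4 (2), FOS, MAP3K5, MAPK10 and SPRY1. The best-ranked MAP2K4 region, near a kinase that acts on JNK, had 4.39 and 7.43. Transforming growth factor-beta (TGF-beta) and bone morphogenetic protein genes had 6 of 416 (1.44%), among them regions near SMAD2 (2), BMP7, SMAD7 and SMURF1. Growth factors and receptor tyrosine kinases had 8 of 434 (1.84%), near IGFBP3 (3), NRG1 (2), EGFR, IGFBP5 and PDGFB. The EGFR region lay 85493 bp upstream at a start of another transcript, with 8.24 and 6.19. Wnt and Notch genes had 7 of 443 (1.58%), near DKK1, DKK2, JAG1, NOTCH1, TCF7L1, WNT3 and WNT7A. Cytokines and chemokines had 4 of 286 (1.40%), near CCL20, IL1B, IL33 and TNFAIP3. Ion channels had 5 of 395 (1.27%), and among these were the mechanosensitive channels PIEZO1 and TRPV4 (6.74 and 7.48 at 39312 bp from TRPV4).

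Lineage genes were also near the background. Liver development factors had 9 of 461 (1.95%), near SOX17 (2), SOX9, LHX2, NR2F1, NR2F2, NR5A2, RARB and TBX3. The SOX17 region ranked best after SOX9 had 4.39 in replicate 1 and 10.4 in replicate 2. Genes of stellate cell lineage and quiescence had 8 of 492 (1.63%), near ZEB2 (2), KLF4, LHX2, RUNX1, RUNX3, TCF4 and TWIST2. The LHX2 region, which counts in both lists and lies near the gene of a factor that holds stellate cells quiescent, had 5.87 and 4.69, and an intronic RUNX1 region had 5.84 and 5.76. Ribosomal protein genes, included as a set with no tie to fibrosis, had 4 of 127 (3.15%, 1.23 to 7.82), near RPL5, RPL11, RPS12 and RPS24, a share next to that of the collagens.

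Measures that the rule did not use were tested over libraries, the 2 of D4 stiff against the other 6, with exact two-sided permutation tests over the 28 choices of 2 libraries, in which the smallest possible p is 0.0357. The first was the share of a library's other peaks whose summit lay within 10 kb of a D4 stiff alone region. It was 1.21% and 1.19% in the D4 stiff libraries, 1.17% and 1.19% in D2 soft, 1.24% and 1.24% in D2 stiff, and 1.19% and 1.14% in D4 soft. The groups overlapped, with 1.20% ± 0.0210 (SD, n = 2) against 1.20% ± 0.0384 (SD, n = 6), and the difference of 0.00476 percentage points was within the spread between libraries (exact permutation p = 0.964, adjusted p = 0.964 over the 2 tests). No surplus of further peaks around the regions was thus detected in D4 stiff.

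The second was the share of the 1259 nearest genes with a promoter peak, leaving out the D4 stiff alone regions, minus the same share over all protein-coding genes. It was 0.202 and 0.143 percentage points in D4 stiff. It was −4.73 and −0.601 in D2 soft, −0.0396 and −0.651 in D2 stiff, and −0.0698 and −0.793 in D4 soft. Both D4 stiff libraries were above each of the other 6, but the mean difference of 1.32 percentage points rested largely on D2 soft replicate 1, the shallowest library, and did not pass the test (exact permutation p = 0.286, adjusted p = 0.571). Without that library, and with the same 1259 genes, the difference was 0.603 percentage points (exact permutation p = 0.143). When the rule was also applied again without it, which gave 1427 regions, the difference was 0.563 (exact permutation p = 0.0952). In D4 stiff replicate 1, 824 of the 1259 genes (65.4%) had a promoter peak of their own, close to the 65.2% of all protein-coding genes.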

How the data were processed

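ATAC-seq peak lists of 8 LX-2 libraries were used, with groups and replicate numbers from the sample titles. Replicates are stated to be biological, and the lists were called per library. The authors trimmed reads with Trim Galore, mapped them to hg19 with Bowtie2 (version 2.4.1) and called peaks with MACS2 at a q-value threshold of 0.05. The submitters' processing notes also name bedtools (2.24.0) and Picard, while the MACS2 options and read filters are not given in the sources used here. Fold enrichment, as the authors deposited it, sets the summit pileup against the local background within a list. The deposited −log10 p and −log10 q of the authors' caller rest on the same background, and the deposited score is derived from q by the authors' caller and was not used.

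Values were ranked within lists because they are not comparable between libraries, and read totals were not used here. Depth was estimated by solving fold enrichment and p for the summit pileup and background under the MACS2 model, which takes the shortest peak as the fragment length and serves only to compare libraries. A deeper library allows weaker sites to be called, and the rule is built on absence from lists. The D4 stiff libraries were the deepest, so depth and culture condition cannot be told apart here. The part of depth in the set of regions was not tested.

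Peaks overlapping by 1 bp were merged. Positions used GENCODE release 44 on GRCh37 (the same build as hg19, basic transcripts, 110162 starts), coordinates are 1-based, and motifs were searched in 201-base windows. Intervals are 95% Wilson intervals. The merging, the rule, the pileup estimate and the permutation test were tested on simulated data. Python 3.11.15, SciPy 1.17.1, statsmodels 0.14.6 and pysam 0.24.0 were used.

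The regions named are the 10 with the best mean percentile in D4 stiff, the 6 best at protein-coding promoters, genes nearest to the most regions (at least 3, at most 10 genes), up to 3 genes of each of 17 lists by their best-ranked region, and windows of 100 kb with the most regions. Other list genes are named with their number of regions only, and 2 items that the rules would name are not reported here. The regions and the lists were chosen with earlier results of these data known. Alternatives covered the q threshold, merging, list lengths, windows and leaving out each library. Replicate numbers were not shown to pair libraries, since the run numbers within the peak names differ from the labels in 5 of the 8 lists.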

Additional observations from a re-analysis of the deposited data

Results flagged for a closer look

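The excess of promoter peaks at the genes nearest to the D4 stiff alone regions was −4.73 percentage points in D2 soft replicate 1, far from the other 5 libraries outside D4 stiff, which lay between −0.793 and −0.0396. Its gap to the nearest of them was 0.839 of the whole range, above the critical value of 0.625 for 6 libraries, a value that chance passes in about 1 of 20 groups. This library also had the fewest peaks, 29789, and the lowest estimated depth, 0.780 fragments per kb, and the part of depth in the value was not tested.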

How the results depend on the processing

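The number of D4 stiff alone regions changed with list length and with the libraries used. With every list cut to the shortest, 124 regions met the rule, their promoter share was 29.8%, their TEAD share 24.2%, and the differences in flanking and promoter peaks between D4 stiff and the other libraries were −0.0219 and −0.837 percentage points. With lists cut to the shortest other than D2 soft replicate 1, the number was 405, with 9.63% at promoters, 31.4% with AP-1, 22.2% with TEAD and a flanking difference of −0.00998 points. Between 1315 and 1370 regions met the rule under a q-value up to 0.01, merging across 200 bp, or merging only peaks that overlap by 50% of the shorter. The last was chosen after seeing the data, and gave a flanking difference of −0.0332 points. The test of promoter peaks without D2 soft replicate 1 on the reported regions (0.603 points) was also chosen after seeing the data. Asking for an overlap of 50% between peak and region changed nothing, since each peak lies whole within its merged region.

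Leaving out each library in turn and applying the rule again gave 1427 to 8265 regions, the highest numbers being 8265 without D4 stiff replicate 1, 5024 without D4 stiff replicate 2 and 2130 without D2 stiff replicate 2. The promoter share was then 9.72% to 13.4%, the median percentile (mean of the lists) 8.91 to 17.9, the AP-1 share 23.6% to 29.1%, the TEAD share 16.9% to 20.2%, the flanking difference −0.163 to 0.0366 points and the promoter peak difference 0.563 to 1.56 points. Where 1 D4 stiff library was left, its spread is unknown, and the rule was looser, since it asked for a peak in that list only. The promoter share was 17.3% within 2 kb of a start and 7.87% for protein-coding starts. The AP-1 share was 19.96% within 50 bp and 36.1% over whole regions, and the TEAD share 11.3% and 34.6%.

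The replicate block, with choices of 1 library within each replicate number, gave the same differences of 0.00476 and 1.32 points with exact permutation p of 0.938 and 0.312, where the smallest possible p is 0.0625, so it could not pass 0.05. Nor could the fits without a D4 stiff library, whose smallest p is 0.143. No alternative took either test past 0.05, and the exact p ranged from 0.0714 to 1 for flanking peaks and from 0.0952 to 0.821 for promoter peaks. Of the 1373 reported regions, 1371 and 1079 lost a D4 stiff peak through the cuts of list length, by construction.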
